A study of Mus musculus with 288 samples.

Results

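A group of 10 genes that link calcium signals, membranes and the cytoskeleton was followed in single mouse embryonic stem cells during release from 2i: the S100 genes S100a4, S100a6, S100a10 and S100a11, the annexin gene Anxa2, the galectin gene Lgals1, the intermediate filament genes Vim, Krt8 and Krt18, and the GTPase regulator gene Arhgdib. They are 10 of the 54232 rows of the deposited count table. They were chosen by name, with results of these cells already known: S100a6 was selected on its higher level in D1, and Arhgdib on its higher level in D2. Levels and differences of the members are therefore given as descriptions, without a test.

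The cells are labelled as the E14 line of strain 129/Ola. They had been kept on gelatine in N2B27 medium with LIF and the 2 inhibitors CHIR99021 and PD0325901 (the 2i medium), and were then moved to medium with fetal bovine serum and LIF. D0, D1 and D2 stand for cells sorted 0, 24 and 48 h after that move, with 96 wells under each label. The RNA came from scNMT-seq, which reads the transcriptome, DNA methylation and DNA accessibility of the same sorted cell. LIF was present under all 3 labels, and no genotype or further agent differs between them in the labels. Each label is 1 culture on 1 plate, so cells are not replicates of a time point, no p-value was computed, and time, culture and plate cannot be told apart.

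S100 proteins are small calcium-binding proteins with EF hands that bind partner proteins. S100A10 is the exception that no longer responds to calcium, and it joins pairs of annexin A2 molecules at the inner face of the plasma membrane. Keratin filaments form from a type I and a type II keratin, and keratin 8 with keratin 18 is the main such pair of simple epithelia, including the trophectoderm of the blastocyst, while vimentin forms the filaments of mesenchymal cells and of many cultured cells.

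Of the 288 wells, 233 passed the limits of more than 200000 reads, more than 2000 detected genes and a mitochondrial share below 0.15: 90 in D0, 50 in D1 and 93 in D2. Reads on genes ranged from 255040 to 10073010 per passing D0 cell, from 202157 to 43336922 per D1 cell and from 491549 to 9812323 per D2 cell. At 200000 reads per cell, the median D0 cell had 7823.5 detected genes, the median D1 cell 8058 and the median D2 cell 3952. All 6 pluripotency markers examined (Pou5f1, Sox2, Zfp42, Utf1, Nanog and Esrrb) were detected in 50% or more of the cells under every label. D1 stood apart in a measure unrelated to the members: Hprt had a read in 96% of D1 cells but in 10% of D0 and 7.53% of D2 cells, and the sum of 4 Y-linked genes (Uty, Kdm5d, Eif2s3y, Ddx3y) in 96%, 3.33% and 5.38%. By these genes, 1 cell in each label went against its own label in both measures. These values leave unsettled whether the D1 cells are of the same line as the others, so line, culture, plate and time cannot be told apart in any comparison with D1, while D2 over D0 uses no D1 cell.

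The windows upstream of 3 members are shown because S100a6 and Arhgdib define the pattern by which the set was chosen, and because S100a11 has 2 matches to the AP-1 motif. Each run is the 250 bases before the RefSeq transcription start on GRCm38.p6, 5′ to 3′ on the strand of the gene, and capitals mark matches on either strand to AP-1 (TGANTCA), TEAD (GGAATG) or the TATA box (TATAAA). S100a6 is at chr3:90612644-90612893 on the plus strand, S100a11 at chr3:93520246-93520495 on the plus strand and Arhgdib at chr6:136941900-136942149 on the minus strand.
S100a6: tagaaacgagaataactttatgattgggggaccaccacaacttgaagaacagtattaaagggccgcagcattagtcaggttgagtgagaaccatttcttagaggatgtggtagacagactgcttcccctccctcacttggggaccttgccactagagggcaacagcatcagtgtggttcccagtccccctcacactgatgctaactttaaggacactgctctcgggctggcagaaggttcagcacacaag
S100a11: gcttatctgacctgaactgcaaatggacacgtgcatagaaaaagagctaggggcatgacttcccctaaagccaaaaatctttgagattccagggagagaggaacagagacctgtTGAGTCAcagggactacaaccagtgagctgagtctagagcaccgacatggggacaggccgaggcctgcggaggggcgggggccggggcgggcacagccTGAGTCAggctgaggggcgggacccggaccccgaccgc
Arhgdib: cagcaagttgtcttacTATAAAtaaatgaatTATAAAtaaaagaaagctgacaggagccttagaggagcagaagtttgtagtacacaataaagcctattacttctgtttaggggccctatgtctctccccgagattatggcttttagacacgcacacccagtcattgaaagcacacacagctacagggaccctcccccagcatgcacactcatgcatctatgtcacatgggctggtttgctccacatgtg

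In S100a11 the AP-1 matches begin at -136 and -38 from the start, and the only other member with a match is Anxa2, at -95. Of 32544 mouse promoter windows of 300 bases in RefSeq, 7.79% hold such a match. A TATA box match was found in Anxa2, Arhgdib, Krt8, S100a4 and Vim (13.6% of all windows), and it begins at -32 in Vim, -31 in S100a4, -17 in Anxa2, -3 and -1 in Krt8, and -234 and -219 in Arhgdib. The TEAD letters occur in 2 further windows of Arhgdib (14.6% of all), the GC box GGGCGG in Anxa2, Arhgdib and S100a11 (35.9% of all), and the CArG box, the site that serum response factor binds, in none of the 10 windows (1.64% of all). These matches are letters in a window and not measured sites, and the motifs were not tested against the levels below.

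The genes lie on 5 chromosomes of GRCm38 (GENCODE annotation). S100a4 (chr3:90603771-90606045) and S100a6 (chr3:90612882-90624181) are 6837 bases apart on the plus strand of chromosome 3, in the cluster that holds most S100 genes. S100a11 (chr3:93520488-93526287) and S100a10 (chr3:93555080-93564643) are a second pair on the same strand, 28793 bases apart. Krt8 (chr15:101996698-102004482, minus strand) and Krt18 (chr15:102028180-102032027, plus strand) are divergent neighbours 23698 bases apart, although nearly all other type I keratin genes lie with each other elsewhere. Anxa2 (chr9:69453620-69491795), Lgals1 (chr15:78926725-78930465), Vim (chr2:13573927-13582826) and Arhgdib (chr6:136923655-136941899) stand alone. Between 511 (S100a11) and 4743 (Vim) exonic bases were annotated per gene.

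Some of these genes share sequence with other rows. In windows of 75 bases, 37.8% of the S100a11 exon sequence was also present in the processed pseudogene Gm12854 and 18.99% in Gm7665, and 21.97% of Krt8 in Krt8-ps. S100a4 shared 44.8% with the overlapping gene Gm42674. Anxa2, Krt8 and Arhgdib each overlap a gene on the other strand (Gm16144, Gm36026 and Pde6h) over at most 1.49% of such windows. The values of these members are uncertain to that extent, since reads could be split between the copies and no strand setting of the counting is given in the sources used here.

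Levels are given in CPM, the reads of a gene per 1e6 reads on genes in the same cell, and averaged with equal weight per cell. A gene entered a comparison when it was detected in 50% or more of the cells under 1 of the labels compared, and it was counted as higher or lower when its mean CPM differed at least 2-fold. On that rule 6 of the 9 members that entered were higher in D1 than in D0 (Arhgdib, Lgals1, S100a10, S100a11, S100a6 and Vim), where 17.4% of 10494 genes were higher, and 1 was lower (Krt8), where 26.7% were lower. In D2 over D0, 4 of 8 were higher (Anxa2, Arhgdib, S100a10 and S100a6; 10.9% of 8822 genes) and 1 was lower (S100a11; 29.3%). In D2 over D1, 2 of 8 were higher (Anxa2 and Arhgdib; 16.4% of 9855 genes) and 3 were lower (Lgals1, S100a11 and S100a6; 23.8%). Because D1 and D2 share the D0 cells and the members were chosen on these contrasts, nothing is read from these counts beyond the values themselves.

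The median log2 ratio of the members was 1.37 for D1 over D0 and 0.98 for D2 over D0, against -0.22 and -0.25 over all genes that entered. The centre of all genes moved with the scaling: on reads summed over cells with TMM factors its median was 0.08 for D1 over D0 and 0.03 for D2 over D0. With those factors 22.3% of genes were higher and 20.3% lower in D1 over D0, and 21.5% and 25.6% in D2 over D0. No member was then at least 2-fold lower in D1 or in D2 than in D0. Krt8 in D1 over D0 went from -1.55 to -0.50 on summed reads alone, and S100a11 in D2 over D0 from -1.12 on summed reads to -0.84 with the factors.

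**Figure D1:**
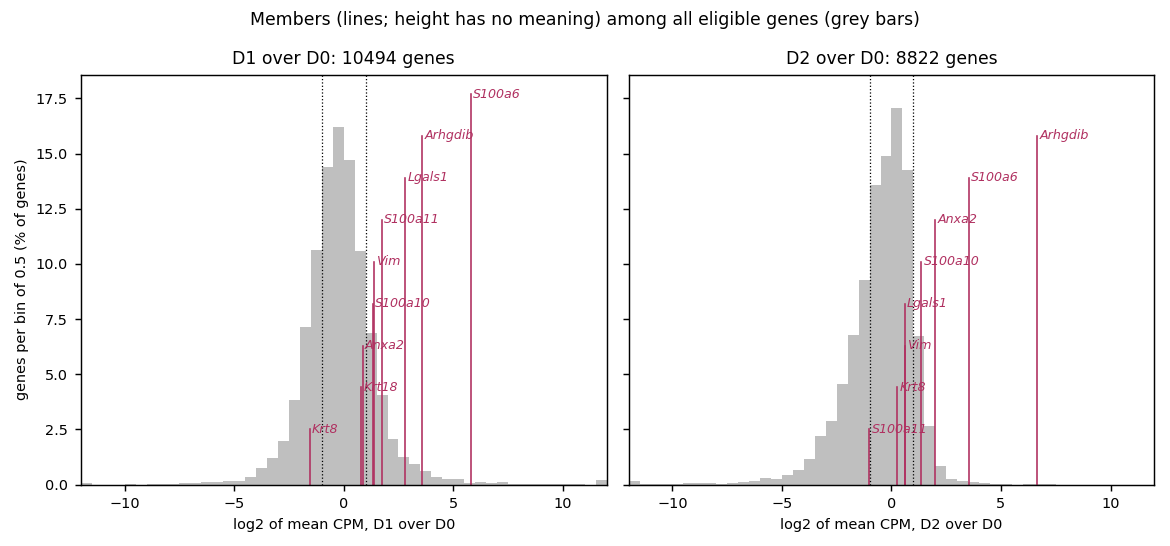
Log2 ratio of mean CPM of the members (red lines, whose height has no meaning) among all genes that entered the comparison (grey bars, percent of genes per bin of 0.5), for D1 over D0 (left) and D2 over D0 (right). Dotted lines mark a 2-fold difference. S100a6 is the farthest member to the right in D1 over D0 at 5.80, and Arhgdib in D2 over D0 at 6.66.

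S100a6, also called calcyclin, is a small EF-hand protein known from proliferating cells and fibroblasts. In D0 its level ran from 0 to 265 CPM with a median of 0, in D1 from 0 to 4977 with a median of 121, and in D2 from 0 to 1207 with a median of 19.3. The labels overlapped at 0, but the bulk of D1 lay above D0. The mean was 5.89 ± 28.95 CPM in D0 (SD between cells, n = 90), 329 ± 775 in D1 (n = 50) and 68.4 ± 163 in D2 (n = 93). The log2 ratio of D1 over D0 was 5.80, the 72nd highest of 10494 genes, and that of D2 over D0 was 3.54, the 23rd highest of 8822. D2 was lower than D1 by a log2 ratio of -2.27, which was -3.28 on plate columns 1 to 6 and -0.92, under 2-fold, on columns 7 to 12.

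The share of cells separates how many cells had the transcript from how much they held. At 200000 reads per cell, S100a6 had a read in 16 of 90 D0 cells (17.8%, 95% Clopper-Pearson interval 10.5 to 27.3%), in 45 of 50 D1 cells (90%, 78.2 to 96.7%) and in 53 of 93 D2 cells (56.99%, 46.3 to 67.2%). The intervals cover counting error only, cells of 1 culture are not replicates of a time, and no test is read from them here or for the other members. The median share over the 10512 genes detected in 50% or more of the cells of any label was 72.2% for D0, 72% for D1 and 25.8% for D2, so S100a6 stood below that median in D0 and above it in D1 and D2. Among cells with a read, the median level was 8.43 CPM under D0, 131 CPM under D1 and 55.9 CPM under D2. Both the share and the level in positive cells were thus higher after release.

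Few cells carried much of the mean. The 5 highest cells held 77.8% of the summed S100a6 CPM in D0, 58.7% in D1 and 49.5% in D2. Leaving out 1 cell at a time moved the log2 ratio of D1 over D0 between 5.31 and 6.79 and that of D2 over D0 between 3.25 and 4.52. The order D0, D2, D1 was kept in each of these.

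S100a4, a neighbour of S100a6 known for binding non-muscle myosin and for its expression in fibroblasts and motile tumour cells, was close to absent. It had no read in D0 or D2, and 204 reads in 3 D1 cells with 156, 28 and 20 reads. Its highest level was 7.65 CPM. Against a floor of 3 reads over all cells of a label, D1 was at least 22.1-fold higher than D0 and at least 25.9-fold higher than D2 on summed reads. The cell with 156 reads set most of this: without it the bounds were 5.38-fold and 6.29-fold on 48 reads, and reads of 1 cell are not independent molecules. At equal depth 2 of 50 D1 cells (4%, 0.488 to 13.7%) had a read, and 0 of 90 D0 cells and 0 of 93 D2 cells allow shares of up to 3.33% and 3.23% by a limit of 3 counts, or 4.02% and 3.89% by the Clopper-Pearson interval. It never entered the comparisons across genes.

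S100a10 was the most evenly detected S100 gene. Its lowest, median and highest levels were 0, 53.9 and 2302 CPM in D0, 0, 158 and 1258 in D1, and 0, 197 and 941 in D2. The mean was 87.5 ± 240 CPM in D0, 222 ± 240 in D1 and 225 ± 175 in D2. The 3 labels overlapped widely, but 86% of D1 cells and 84.9% of D2 cells were above the D0 median. The log2 ratio was 1.35 for D1 over D0 and 1.36 for D2 over D0. The former was 0.84 on plate columns 7 to 12, 1.82 on columns 1 to 6 and 0.82 with no filter on cells, so that it was under 2-fold in 2 of these 3 settings. D2 and D1 differed by a log2 ratio of 0.02, whose sign changed in 5 of 17 alternatives, and no order of these labels is read from it. It was detected in 92.2%, 96% and 91.4% of D0, D1 and D2 cells. S100a10 thus differed in level among cells that nearly all had it, also in D2 where most genes were detected in fewer cells. A single D0 cell at 2302 CPM, with 2342 detected genes, raised its D0 mean, which was 62.6 CPM without that cell.

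S100a11, which binds annexin A1 and takes part in membrane repair, was higher in D1 than in D0 and lower in D2. In D0 it ran from 0 to 426 CPM with a median of 30.4, in D1 from 0 to 786 with a median of 74.9 and in D2 from 0 to 260 with a median of 10.6. Most D1 cells lay above the D0 median (88%), and most D2 cells below it (22.6% above). The mean was 42.4 ± 50.96 CPM in D0, 141 ± 159 in D1 and 21.1 ± 35.9 in D2, which gives log2 ratios of 1.73 for D1 over D0 and -1.004 for D2 over D0. The latter sits at the limit of 2-fold, and leaving out 1 cell moved it between -1.19 and -0.85. On plate columns 7 to 12 alone it was -0.32, and on columns 1 to 6 it was -1.69. Detection went from 94.4% of D0 cells and 96% of D1 cells to 61.3% of D2 cells (50.6 to 71.2%).

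**Figure D2:**
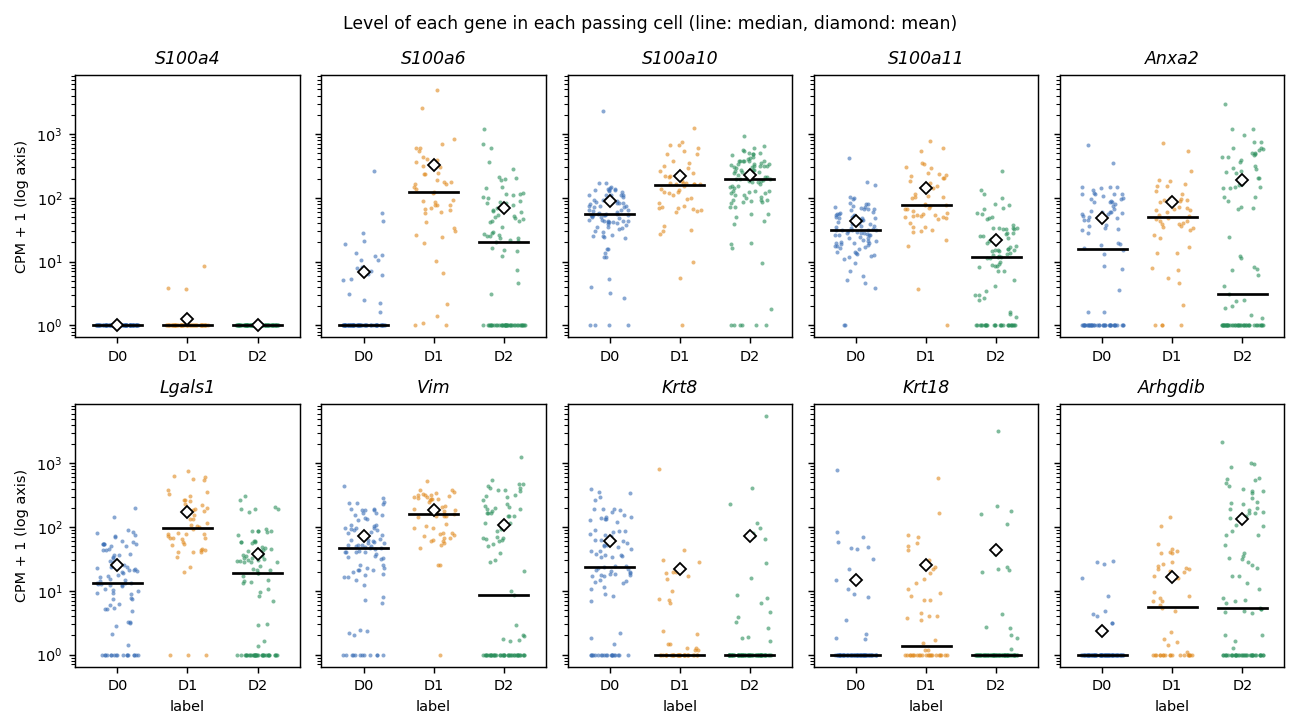
Level of each of the 10 genes in each of the 233 passing cells (points, CPM + 1 on a log axis) under D0, D1 and D2, with the median (line) and mean (diamond) of the label. Cells without a read lie at 1. S100a6 has a median of 0 CPM in D0 and 121 in D1, while Arhgdib in D2 runs from 0 to 2162 CPM.

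Anxa2, the membrane-binding partner of S100A10, was spread unlike it. The level ran from 0 to 667 CPM in D0 with a median of 15.0, from 0 to 718 in D1 with a median of 49.2, and from 0 to 2968 in D2 with a median of 2.11. In D2 the cells ranged from no read through low values to high ones, with 53 of 93 cells above 0 and 41 at 10 CPM or more. The mean over D2 cells with a read was 327 CPM in 53 cells, against 80.8 in 52 D0 cells and 92.7 in 46 D1 cells. Over all cells the mean was 46.7 ± 86.2 CPM in D0, 85.3 ± 126 in D1 and 186 ± 394 in D2. The log2 ratio of the means was therefore highest in D2 over D0, at 2.00, while that of the medians was -2.83. In D1 over D0 it was 0.87, under 2-fold, but 1.19 with TMM factors, 1.09 with median-of-ratios factors and 1.08 on plate columns 1 to 6. Cells with a read made up 54.4% of D0, 84% of D1 and 51.6% of D2.

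The pair was most often seen together in D1. At equal depth both S100a10 and Anxa2 had a read in 46 of 90 D0 cells, 41 of 50 D1 cells and 47 of 93 D2 cells. Anxa2 without S100a10 was rare, with 3, 1 and 1 cells, whereas S100a10 without Anxa2 occurred in 37, 7 and 38 cells. Since S100a10 was detected in over 90% of cells under each label, these counts follow the share of Anxa2.

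Lgals1 encodes galectin-1, a secreted lectin that binds beta-galactosides on the matrix and on cell surface proteins. In D0 its level ran from 0 to 201 CPM with a median of 12.5, in D1 from 0 to 747 with a median of 96.9, and in D2 from 0 to 307 with a median of 17.9. D1 lay above the D0 median in 94% of its cells. The mean was 24.1 ± 32.1 CPM in D0, 170 ± 180 in D1 and 36.6 ± 58.8 in D2. The log2 ratio was 2.82 in D1 over D0, 0.60 in D2 over D0 and -2.21 in D2 over D1. On plate columns 1 to 6 the ratio of D2 over D0 was -0.04, so no direction is read from it. Of the D0, D1 and D2 cells, 73.3%, 94% and 60.2% had a read.

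Vim, the vimentin gene, was detected in nearly every D1 cell. It ran from 0 to 434 CPM in D0 with a median of 45.7, from 0 to 518 in D1 with a median of 159 and from 0 to 1248 in D2 with a median of 7.52. The mean was 70.2 ± 79.04, 181 ± 119 and 106 ± 183 CPM. D1 was the label with the tightest spread relative to its mean, and 94% of its cells were above the D0 median. The log2 ratio was 1.37 for D1 over D0 and 0.60 for D2 over D0. As for Anxa2, the mean and the median of D2 pointed in opposite directions (log2 ratio of medians -2.60), with a read in 49 of the 93 D2 cells at equal depth. Vim was detected in 83.3% of D0, 98% of D1 and 52.7% of D2 cells.

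Krt8, the type II keratin of simple epithelia, was the 1 gene of the set with its broadest expression in D0. The level ran from 0 to 392 CPM in D0 with a median of 22.8, from 0 to 813 in D1 with a median of 0, and from 0 to 5564 in D2 with a median of 0. At equal depth 67 of 90 D0 cells had a read (74.4%, 64.2 to 83.1%), 15 of 50 D1 cells (30%, 17.9 to 44.6%) and 15 of 93 D2 cells (16.1%, 9.32 to 25.2%). D1 had fewer cells with Krt8 while the median share over all genes was alike in D0 and D1 (72.2% and 72%), and the D2 share was below the 25.8% median of that label.

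The means of Krt8 in D1 and D2 rested largely on 1 cell each. The means were 60.4 ± 84.3 CPM in D0, 20.6 ± 115 in D1 and 72 ± 578 in D2. Without the highest cell of each label they were 56.7, 4.44 and 12.3 CPM. The log2 ratio of D1 over D0 was -1.55, and -3.78 without the cell with the highest sum over the 10 genes in each label. In D2 over D0 it was 0.25 with all cells and -2.31 without those cells.

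Krt18, the type I partner, had a read before thinning in 18 of 90 D0 cells, 27 of 50 D1 cells and 16 of 93 D2 cells. The highest cells had 791, 585 and 3216 CPM under D0, D1 and D2, the lowest 0, and the medians were 0, 0.357 and 0. The mean was 13.9 ± 84.2 CPM in D0, 24.2 ± 85.7 in D1 and 43 ± 334 in D2, and 5.14, 12.7 and 8.51 CPM without the highest cell of each. At equal depth a read was present in 16.7% of D0 cells (9.64 to 26%), 38% of D1 cells (24.7 to 52.8%) and 10.8% of D2 cells (5.28 to 18.9%). Its log2 ratio was 0.80 for D1 over D0 and 1.63 for D2 over D0, for which Krt18 did not meet the detection limit. Both turned negative when 1 cell was left out (-0.12 and -0.70). No direction of the Krt18 mean is read from these cells.

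The 2 keratins were not detected together in the same proportion. At equal depth, Krt8 without Krt18 was found in 53 D0 cells, 9 D1 cells and 11 D2 cells. Krt18 without Krt8 was found in 1, 13 and 6 cells, and both in 14, 6 and 4. In D0 14 of the 15 cells with Krt18 thus also had Krt8, whereas in D1 6 of 19 and in D2 4 of 10 did. Krt8 itself had a read in 74.4% of all D0 cells, 30% of D1 cells and 16.1% of D2 cells. These counts move with that share, and a difference in pairing between labels was not tested. Each cell holds a sample of its transcripts, and at this depth a missing read does not show that a keratin was absent.

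**Figure D3:**
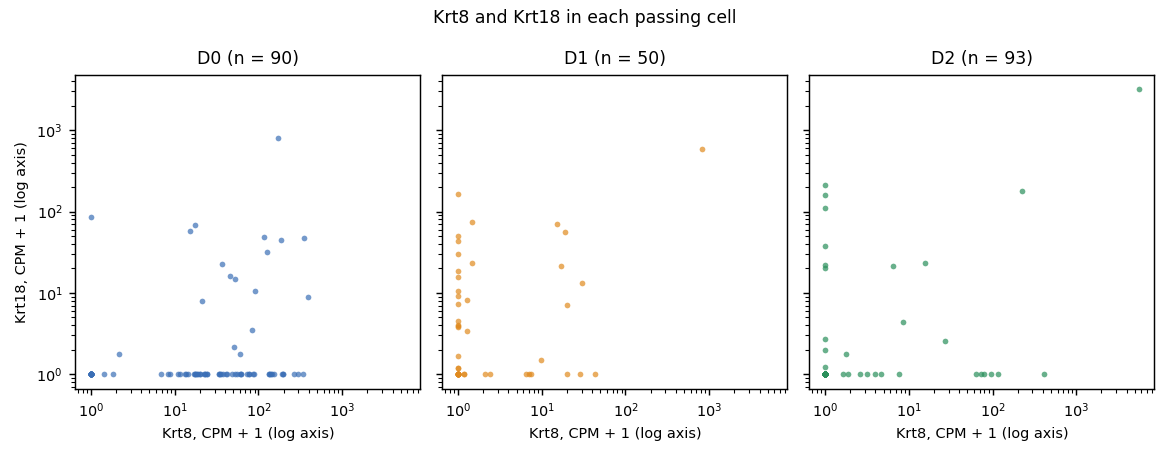
Krt8 (x axis) against Krt18 (y axis) in each passing cell of D0, D1 and D2, as CPM + 1 on log axes. Cells without a read of a gene lie at 1. Many D0 cells lie along the Krt8 axis, and 1 D2 cell stands apart at 5564 CPM of Krt8 and 3216 CPM of Krt18.

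A single cell of each label had the highest sum over the members. In D0 it was the cell with 2302 CPM of S100a10, which made up nearly all of its 2333 CPM. Its 6 pluripotency markers summed to 558 CPM, the lowest of all D0 cells, with Pou5f1, Utf1, Nanog and Esrrb at 0. In D2 it was the cell with 5564 CPM of Krt8, in which the members summed to 12677 CPM against a D2 median of 613. It also held 1207 CPM of S100a6, the highest in D2, and 1217 CPM of Anxa2. Its 6 pluripotency markers summed to 90.6 CPM, the lowest of all D2 cells (median 3341), with Pou5f1 at 0. Of the 5 trophectoderm markers, Krt7 was at 902 CPM, while Cdx2, Eomes, Elf5 and Gata3 were at 0. In D1 the cell with the highest sum (8645 CPM, label median 751) held 4977 CPM of S100a6, 813 of Krt8, 585 of Krt18, 718 of Anxa2 and 747 of Lgals1, and was also the cell with the most S100a4. Its pluripotency markers summed to 1147 CPM, near the D1 median of 1273. Pou5f1 (682), Utf1 (322) and Zfp42 (143) made up this sum, with Sox2, Nanog and Esrrb at 0. Of the trophectoderm markers of this D1 cell, Cdx2 was at 118 CPM and Krt7 at 2.55, with Eomes, Elf5 and Gata3 at 0. Another D0 cell, with the most S100a6 (265 CPM), had the highest Anxa2 (667 CPM) and Lgals1 (201 CPM) of D0 and the second highest Krt8 (350 CPM). Its pluripotency markers summed to 2687 CPM (D0 median 2181), and Eomes was at 80.9 CPM, Gata3 at 25.1 and Cdx2 at 12.6, with Elf5 and Krt7 at 0. These 4 cells were picked for their values, and the result is a description of them.

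Arhgdib encodes an inhibitor that holds small GTPases of the cytoskeleton in the cytosol and is best known from blood cells. In D0 its level ran from 0 to 27.99 CPM with a median of 0, in D1 from 0 to 142 with a median of 4.64, and in D2 from 0 to 2162 with a median of 4.37. In D2, 35 of 93 cells were above the highest D0 cell, and in D1 8 of 50. The mean was 1.30 ± 5.13 CPM in D0, 15.5 ± 26.7 in D1 and 131 ± 299 in D2. The log2 ratio was 3.57 for D1 over D0 and 6.66 for D2 over D0, the second highest of 8822 genes, and the latter lay between 6.39 and 7.03 with any 1 cell left out. Since the D0 mean was so low, the size of both rested on few D0 reads: with 10 CPM added to each mean they were 1.175 and 3.65. In D2 over D1 the log2 ratio was 3.08 for the means and -0.09 for the medians.

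D1 and D2 differed in how much Arhgdib a positive cell held more than in how many cells had it. At equal depth a read was found in 7.78% of D0 cells (3.18 to 15.4%), 48% of D1 cells (33.7 to 62.6%) and 51.6% of D2 cells (41.01 to 62.1%). Among cells with a read, the median level was 5.58 CPM in 10 D0 cells, 17.4 in 32 D1 cells and 79.8 in 56 D2 cells. The 5 highest D2 cells held 45.7% of the summed CPM.

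**Figure D4:**
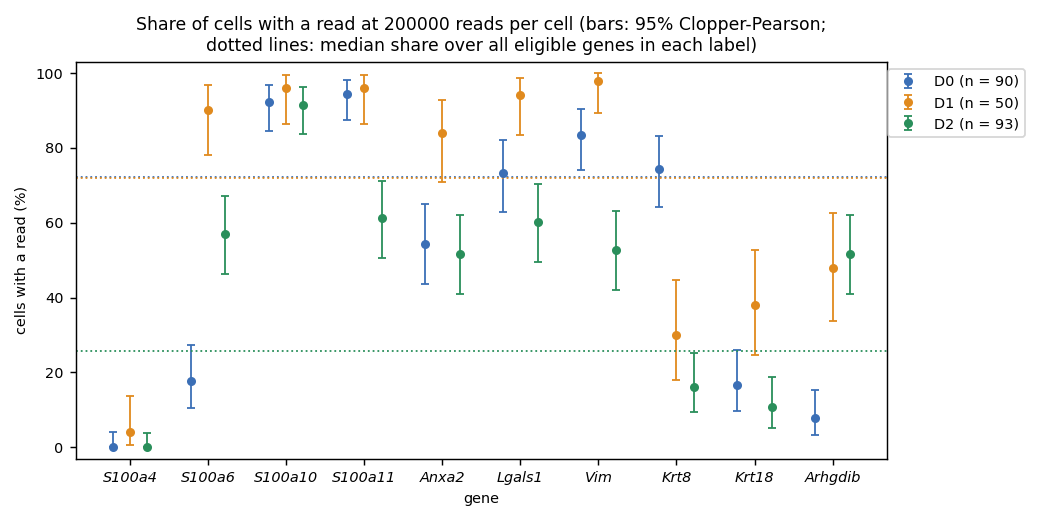
Percent of passing cells with at least 1 read of each gene when every cell is thinned to 200000 reads, by label, with 95% Clopper-Pearson intervals (counting error only). Dotted lines give the median share over 10512 genes in each label (72.2% for D0, 72% for D1, 25.8% for D2). S100a6 lies at 17.8%, 90% and 56.99% in D0, D1 and D2, and Krt8 at 74.4%, 30% and 16.1%.

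Levels were also divided by the kilobases of exon annotated over all transcripts of a gene, and the order changed between labels. The length of the transcript in use was not known, so different genes are compared only roughly. In D0 the highest mean levels were those of S100a11 (83 CPM per kb) and S100a10 (72.2), followed by Krt8 (30.8), Lgals1 (26.7), Vim (14.8), Anxa2 (12.5), Krt18 (9.65), S100a6 (4.31) and Arhgdib (0.764). In D1 S100a6 (241) came second to S100a11 (276) and ahead of Lgals1 (188) and S100a10 (184), and the others lay between 9.10 and 38.2, S100a4 apart. In D2 S100a10 (186) came first and Arhgdib (77) second, ahead of S100a6 (50.1), Anxa2 (49.9), S100a11 (41.4), Lgals1 (40.5), Krt8 (36.8), Krt18 (29.9) and Vim (22.4). These orders rest on means that few cells carried: without the highest D1 cell of each gene, S100a6 was at 171 CPM per kb and Lgals1 at 175, and without the highest D2 cell of each, Krt8 was at 6.28 and Krt18 at 5.92, both below Vim at 19.8. By medians the D1 order began with S100a11 (147), S100a10 (131), Lgals1 (107) and S100a6 (88.8), and the D2 order with S100a10 (162), S100a11 (20.8), Lgals1 (19.8) and S100a6 (14.1), with Arhgdib at 2.56. No gap between neighbours in the orders by mean exceeded the larger SD between cells of the pair.

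Co-variation was measured by Spearman's rank correlation across the cells of a label at 200000 reads per cell, over members detected in 50% or more of those cells. In D1, 6 of the 15 pairs of S100a6, S100a10, S100a11, Anxa2, Lgals1 and Vim had a correlation of at least 0.5 (40%), against 0.645% of all gene pairs detected to the same extent, and the median was 0.38 against 0.06. The highest were S100a10 with S100a11 at 0.72 and S100a6 with S100a10 at 0.71 (n = 50 cells). S100a11 with Lgals1 was at 0.61, S100a6 with S100a11 at 0.60, S100a10 with Lgals1 at 0.55 and S100a6 with Lgals1 at 0.52. Anxa2 was highest with Lgals1 (0.43, and 0.51 in a second thinning draw), and with its partner S100a10 it was at 0.21, 0.36 in the second draw and 0.31 without thinning. On log2 values, Pearson's r of S100a6 was 0.52 with S100a10, 0.44 with S100a11 and 0.36 with Lgals1, and without the D1 cell with the highest member sum the rank correlation of S100a6 with Lgals1 was 0.49. Vim had negative values with the S100 genes and Lgals1, from -0.35 to -0.28, and in the second draw -0.26 with S100a6 and -0.17 with Lgals1.

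The median over pairs and the highest pair were lower under the other labels, though single pairs were not (S100a11 with Anxa2 was at 0.28 in D0 and 0.18 in D1). The genes also differed: D0 held Krt8 but not S100a6, D1 S100a6 but not Krt8, and D2 S100a6 and Arhgdib. S100a6, chosen on its level in D1, was detected in 90% of D1 cells but in 17.8% of D0 cells. The medians are thus over different pairs, and no difference between labels in the co-variation of the group is read from them. In D0 none of 15 pairs reached 0.5, the median was 0.18 against 0.03 over all gene pairs, and the highest was Anxa2 with Krt8 at 0.35. In D2 none of 21 pairs reached 0.5, the median was 0.06 against 0.01, and the highest was S100a6 with Lgals1 at 0.27. S100a10 with S100a11 was at 0.20 in both, but at 0.34 in D0 and 0.10 in D2 in a second thinning draw, so no likeness of these labels is read from it. The labels hold different numbers of cells (90, 50 and 93) and different numbers of detected genes, and the difference in correlation between labels was not tested.

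Other properties of the cells moved with the D1 values. The share of reads on other genes with under 1500 exonic bases had a correlation of 0.62 with S100a11, 0.48 with Lgals1, 0.42 with S100a10 and 0.26 with S100a6, but of -0.14 with Anxa2 and -0.33 with Vim. The first 4 of these genes have 511 to 1367 exonic bases, Anxa2 3731 and Vim 4743. That share ran from 7.60 to 28.9% between D1 cells (median 11.4%). The correlation with the total reads of the cell lay between -0.09 and 0.22 for these 6 genes. That with the mitochondrial share was negative for all 6, from -0.30 for S100a6 to -0.03 for Vim. That with the number of detected genes at equal depth was 0.34 for Anxa2 and 0.32 for Vim, and from -0.24 (S100a11) to -0.08 (Lgals1) for the other 4. Over 868 short genes in D1 the median correlation between pairs was 0.05, and 1.96% of pairs reached 0.5. The part of these properties in the D1 correlations was not tested.

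**Figure D5:**
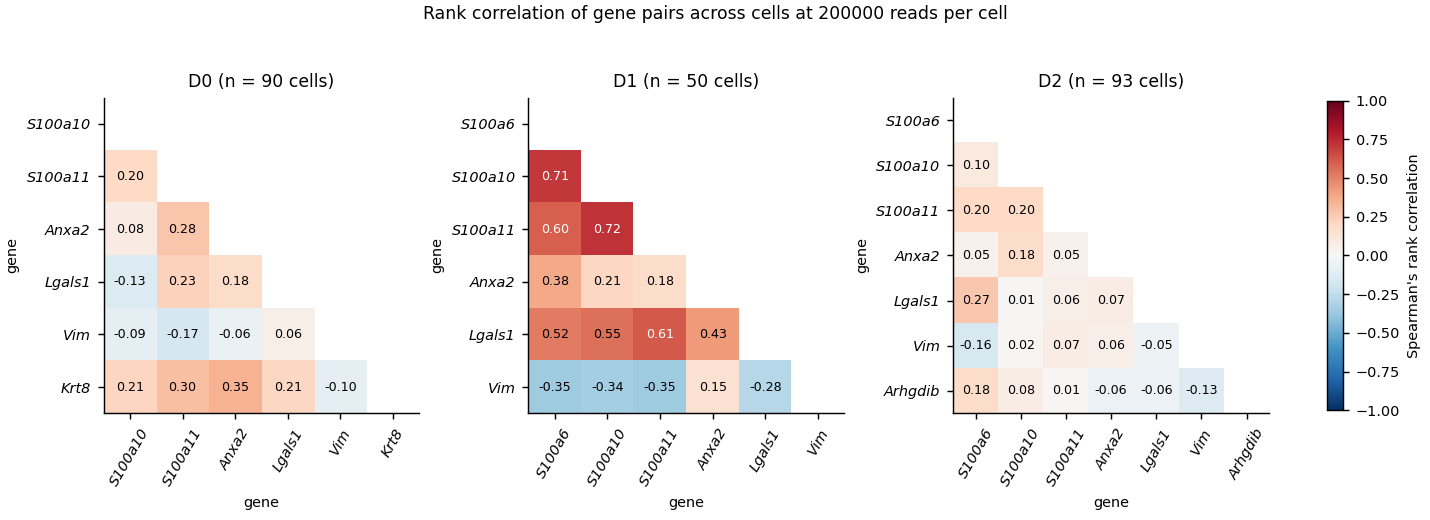
Spearman's rank correlation between members across the cells of D0, D1 and D2 (colour and number), for members detected in 50% or more of the cells of the label at 200000 reads per cell. The block of S100a6, S100a10, S100a11 and Lgals1 in D1 has values from 0.52 to 0.72, and Vim has negative values with them, from -0.35 to -0.28.

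Among all genes with an established symbol, those most like each member in rank across cells were also listed, 3 per member and label. In D1 S100a6 was closest to S100a10 (0.71), Dppa5a (0.62) and Pla2g7 (0.62), and S100a10 to S100a11, S100a6 and Ccnb2 (0.63). S100a11 was closest to Gtf2f2 (0.73) and Lgals1 to S100a11. In D0 Anxa2 (0.50) and Krt8 (0.45) had the same nearest gene, Tagln2, which encodes the actin-binding protein transgelin-2. In D2 Arhgdib was closest to Cdv3 (0.41), Sparc (0.40) and Tmsb4x (0.40), and S100a6 and Lgals1 both to Csnk2a1 (0.41 and 0.34).

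Relatives of the members did not share one direction. Of 14 other S100 genes, 3 met the detection limit, and all 3 were lower in D1 than in D0 (S100a1 at a log2 ratio of -3.50, S100a13 at -2.08 and S100pbp, which encodes an S100P-binding protein, at -1.28), as were 2 in D2. Of 7 other annexin-list genes in D1 over D0, 1 was higher (Anxa1, 1.86) and 2 were lower (Anxa4 at -3.12 and Ahnak, a large protein that binds S100A10 and annexin A2, at -2.50). In D2 over D0, 0 of 5 were higher and 3 were lower (Ahnak -3.87, Anxa4 -3.55 and Anxa7 -1.25). The 1 other galectin that met the limit, Lgals3, was higher in both, with log2 ratios of 1.71 and 2.29.

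Among 10 other intermediate filament genes in D1 over D0, 3 were higher (Nefm 1.71, Nefl 1.49 and Des 1.42) and 1 was lower (Lmnb1, -1.12), and in D2 over D0 1 of 6 was higher (Lmna, which encodes lamins A and C, 1.40) and 1 lower (Nefl, -1.01). Actin cytoskeleton genes were higher in 11 of 29 and lower in 3 of 29 in D1 over D0, with Actn1 (-3.72) lowest. Among the higher ones, Myl9, which encodes a myosin regulatory light chain, had no read in D0. In D1 it had a read in 27 cells and a mean of 29.6 ± 42.2 CPM. Reads of 1 cell are not independent molecules, so no fold is given for Myl9. Tmsb4x (4.15) and Tpm2 (3.81) had the next highest log2 ratios. In D2 over D0, 7 of 26 were higher and 5 of 26 lower. Over all genes, 17.4% were higher and 26.7% lower in D1 over D0, and 10.9% and 29.3% in D2 over D0. The lists were chosen with earlier results known and were not tested.

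Several members are also high in fibroblasts, trophectoderm or endoderm, so markers of those cells are given beside the results. Of 7 fibroblast or feeder markers (Col1a1, Col1a2, Col3a1, Dcn, Lum, Thy1 and Postn), Postn had no read in any passing cell, 4 of the 7 were without a read in D0, 2 in D1 and 4 in D2, and their sum had a median of 0 in each label, with highest cells at 15.5, 112 and 85.1 CPM. In D1, where S100a6 had a read in 48 of 50 cells before thinning, a fibroblast marker had one in 21 cells, a trophectoderm marker in 23 and a primitive endoderm marker in 15. In D2 these counts were 7, 11 and 6 of 93 cells, and in D0 7, 28 and 18 of 90. The 5 trophectoderm markers summed to a median of 0 in each label, and to at most 165, 121 and 902 CPM in D0, D1 and D2. The 6 primitive endoderm markers summed to a median of 0 in each and to at most 181, 21.7 and 93.2 CPM. The 3 neural ectoderm markers (Sox1, Pax6 and Nes) had a read in 36 of 50 D1 cells, with a median sum of 13.1 CPM, against 30 of 90 D0 cells and 9 of 93 D2 cells, each with a median of 0. All counts of cells with a marker are before thinning. The median reads per cell were 1610758.5 in D0, 7956161.5 in D1 and 2162090 in D2. The counts are thus not at equal depth, and no difference between labels is read from them. The part of these markers in the levels of the members was not tested.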

How the data were processed

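Single-cell RNA from scNMT-seq of 288 wells was used. The authors deposited raw counts, whole numbers of reads per gene and well, without normalization, although the sample descriptions name a normalized table. The submitters' notes name HISAT2 and GRCm38, and the counting tool and annotation are not given in the sources used here. Other data types were not analysed here.

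Wells passed with over 200000 reads, over 2000 genes and a mitochondrial fraction under 0.15, and 0 passing wells were identical. Counts were scaled to CPM by the total of the cell. Shares and correlations used cells thinned to 200000 reads. Intervals are exact Clopper-Pearson at 95%. With 1 culture per label there was no test. Genes entered a comparison when detected in 50% or more of the cells under 1 of its labels, and were called at 2-fold.

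The members and gene lists were chosen with earlier results of these data known. Beyond the members, the text names the 3 genes nearest in rank to a member in each label, at most the 4 largest differences per related list, Hprt with the Y-linked genes, and the marker genes of the cell types checked. Lmnb1 was named after its value was seen. The Krt8, Krt18 and S100a10 extreme cells were picked after values were seen.

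Alternatives were other cell and gene filters, pseudocounts, scalings (TMM and median-of-ratios factors from edgeR 4.0.16 in R 4.3.3 on summed reads), log-normalized means, plate sides and leaving out cells. Those without cells with either Hprt or Y-linked reads against their label, without the cell with the highest member sum, with a second thinning draw for correlations, and the short-gene share, were added after seeing the data. numpy 2.4.6, scipy 1.17.1 and pandas 2.3.3 in Python 3.11.15 gave the other values. The steps were tested on simulated data. Promoters came from RefSeq, for 8 of the 10 members in 10 windows (none for S100a10 and Lgals1).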

Additional observations from a re-analysis of the deposited data

How the results depend on the processing

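In D2 over D0, 1 member (S100a11) was at least 2-fold lower, at the limit itself. The count was 0 with a pseudocount of 1 or 10 CPM, with no filter on cells, with the stricter cell limits of over 300000 reads and over 3000 genes, with TMM or median-of-ratios factors, with totals without mitochondrial and abundant genes, with cells thinned, on plate columns 7 to 12, and without cells with either Hprt or Y-linked reads against their label. It was 2 (Krt8 and S100a11) on plate columns 1 to 6 and without the cell with the highest member sum in each label. In D1 over D0 the count of lower members went from 1 (Krt8) to 0 with reads summed over cells, alone or with TMM or median-of-ratios factors. A sum of reads weights cells by depth, and the D1 cell with the most Krt8 (813 CPM) had 20382064 reads, against a D1 median of 7956161.5. Without the cell with the highest member sum in each label, the log2 ratio of Krt8 was -3.78 on mean CPM. In D2 over D1 the count of higher members went from 2 to 1, leaving Arhgdib, under the stricter cell limits, with summed reads alone or with TMM factors, and on plate columns 1 to 6.

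Differences of log-normalized means compress low values, and on that scale 1 member (S100a6) was past 2-fold higher in D1 over D0, and 0 in either ratio with D2 as the numerator, with 0 lower in each of the 3 comparisons. The keratin means reversed with single cells or plate sides: the log2 ratio of Krt8 in D2 over D1 (1.80) was -1.56 on plate columns 1 to 6 and between -0.75 and 4.02 with 1 cell left out, and that of Krt18 in D2 over D0 (1.63) was -0.72 without the highest member-sum cells and between -0.70 and 3.06 with 1 cell left out. S100a6, S100a11, Anxa2, Vim and Arhgdib kept their sign in all 3 comparisons under all 17 alternatives, each of which compares means. Ratios of medians, where both medians were above 0, had the opposite sign in some comparisons. These were Anxa2 in D2 over D0 (-2.83) and in D2 over D1 (-4.54), Vim in D2 over D0 (-2.60) and Arhgdib in D2 over D1 (-0.09). The count of higher members in D1 over D0 (6) was 4 with no filter on cells, where S100a10 was under 2-fold and Arhgdib did not pass the filter on genes, 5 with cells thinned, where Arhgdib did not pass it either, 5 on plate columns 7 to 12 without S100a10, 7 with summed reads alone, and 8 with TMM or median-of-ratios factors or on plate columns 1 to 6. Of 306 correlations recomputed under the alternatives, 20 moved by over 0.1, 9 of them in a second thinning draw or without thinning.

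No paired analysis was possible because the result comes from no test, and the numbers in the titles are plate wells that do not link cells of different labels. Depth limits what a missing read shows, above all for S100a4, Krt18 and Arhgdib. A missing read in D2 also shows little, although D2 cells did not have fewer reads than D0 cells. The median was 2162090 reads per cell in D2 and 1610758.5 in D0. At equal depth the median D2 cell had 3952 detected genes, against 7823.5 in D0. The reason for this lower number of detected genes was not tested.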
